A study of Mus musculus with 10 samples.

Results

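DNA methylation is written, copied and removed by a small set of enzymes, and 9 of their genes were examined in hematopoietic stem cells (HSCs) of 18-month-old mice that lack the aryl hydrocarbon receptor (AHR) and of wild-type mice. The genes were chosen by symbol, namely Dnmt1, Dnmt3a, Dnmt3b, Uhrf1, Tet1, Tet2, Tet3, Idh1 and Idh2, and each of them had 1 probe set that the platform annotation pairs with no other gene. They are 9 of the 22180 genes measured in this way.

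As background, DNMT3A and DNMT3B place methyl groups on unmethylated CpG sites, and DNMT1 copies existing marks to the new strand after replication, to which it is brought by UHRF1. The TET dioxygenases oxidize methylcytosine, which starts its removal, and they consume 2-oxoglutarate, the product of the NADP-dependent isocitrate dehydrogenases IDH1 in the cytosol and IDH2 in mitochondria. In human blood, DNMT3A and TET2 are the genes most often mutated in clonal hematopoiesis, and mutant IDH1 or IDH2 makes 2-hydroxyglutarate, which inhibits TET2. The arrays measured RNA, and DNA methylation itself was not measured.

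The samples were 5 arrays of AHR-KO mice (genotype Ahr knockout) and 5 arrays of WT mice (genotype wild-type Ahr), all C57BL/6J and 18 months old, on Affymetrix Mouse Gene 2.0 ST arrays. AHR-KO is the name of the global deletion, which is not limited to blood cells. After lineage-positive marrow cells had been removed, SLAM+ cells were isolated, and cDNA was made from their RNA with an amplification kit. The labels number the arrays of a group without saying that each is a separate mouse. The methods, written for arrays of another AHR line, put each animal on its own array. If arrays here shared animals, p-values would measure a spread that is partly technical. Values are given as log2(signal + 16), in which the added 16 damps the noise of dim probe sets and understates their fold changes. Arrays give no read depth, and the 5 arrays per group limit the precision.

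The targeted gene, Ahr, had a log2 value of 5.97 ± 0.52 in AHR-KO arrays and 5.74 ± 0.74 in WT arrays (SD, n = 5 each). The probe set may lie outside the deleted part, so it does not check the labels. Of the 16 measured HSC markers, 14 lay above the level of 5.47 that 95% of 1435 olfactory, vomeronasal and taste receptor genes stay under, the limit used here for a signal above background. The same limit was passed by 12 of 14 neutrophil markers and 12 of 14 monocyte, macrophage and dendritic cell markers. It was also passed by 9 of 9 measured erythroid markers and by 2 of 9 measured B cell markers. Passing it therefore does not single out HSCs. Cd48, whose protein the SLAM sort selects against, had 8.16 ± 1.24 in AHR-KO and 8.20 ± 0.69 in WT (SD, n = 5 each). The sort described for another AHR line also selects against CD34. Cd34 had 10.47 ± 0.31 in AHR-KO and 10.72 ± 0.31 in WT (SD, n = 5 each). The highest mean of a measured HSC marker was that of Hlf, at 9.77 in AHR-KO and 10.04 in WT. Mpo on the neutrophil list had 11.90 and 11.97, and Lyz2 on the monocyte list 11.46 and 11.49. Other genes of these lists were dimmer, and some lay below the limit. The share of other cells was not measured. In sorted bulk RNA, fewer cells of a type and less RNA per cell cannot be told apart.

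The comparison asked whether loss of AHR was accompanied by other RNA levels of these 9 genes. The mean of each of the 9 lay above the background limit. After Benjamini-Hochberg adjustment of the limma p-values none of the 9 was under 0.05, the lowest being 0.998, and neither was any other gene (0% called). The study threshold, a difference of 1.5-fold or more combined with an unadjusted p below 0.05, was met by 0 of the 9 and by 0.523% of all genes. At an unadjusted p under 0.05 alone, 1 of the 9 was lower in AHR-KO, against 1.93% of all genes, and 0 were higher, against 1.81%. The log2 fold changes, AHR-KO minus WT, were positive for 5 genes and negative for 4, with a median of 0.02 beside a median of 0.004 over all genes. Without regard to sign, the median was 0.084 for the 9 and 0.114 for all genes. For Dnmt1, Dnmt3a, Dnmt3b, Uhrf1, Tet1 and Idh2 the 95% interval of the difference lay inside 1.5-fold in both directions. For Tet2, Tet3 and Idh1 it did not. These intervals depend on the constant added to the signal. The standard error of the log2 difference was 0.11 for Uhrf1 and 0.17 for Dnmt3b. With 1 added instead it was 0.15 and 0.21, and with 64 added 0.077 and 0.12. Intervals were not computed for those constants, so the statement holds only for the one used here.

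**Figure D1:**
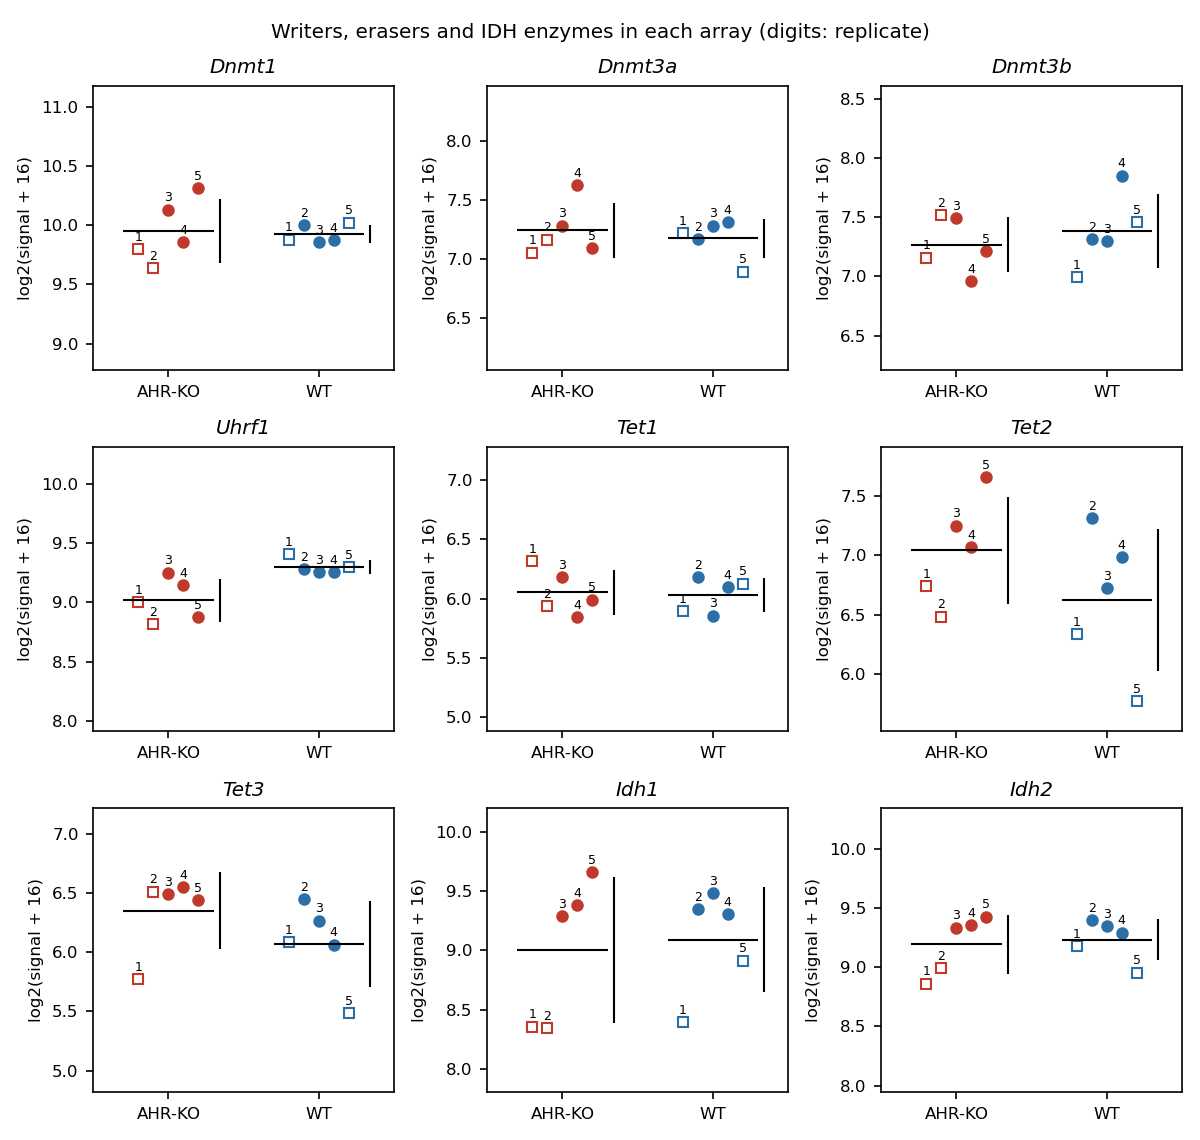
Log2(signal + 16) of each gene in the AHR-KO arrays (red, left) and WT arrays (blue, right), with replicate numbers, the group mean (horizontal line) and the SD (vertical line, n = 5); open squares are the 4 arrays set apart on the first principal component of all genes, and each panel spans the same log2 range. The groups overlap in every panel but that of Uhrf1, where the highest AHR-KO array is at 9.25 and the lowest WT array at 9.26.

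Uhrf1, whose protein binds hemimethylated CpG sites at the replication fork and recruits DNMT1, was the 1 gene of the 9 whose groups did not overlap. Its log2 values were 9.0, 8.82, 9.25, 9.14 and 8.87 in AHR-KO replicates 1 to 5, against 9.41, 9.28, 9.26, 9.26 and 9.30 in WT replicates 1 to 5. The WT arrays lay close together, and the AHR-KO arrays spread below them. The gap between the groups was narrow, at 593.2 on the linear scale in the highest AHR-KO array and 595.8 in the lowest WT array. The mean was 9.02 ± 0.18 in AHR-KO and 9.30 ± 0.06 in WT (SD, n = 5 each), a log2 difference of -0.28 (standard error, SE, 0.11, 95% interval -0.53 to -0.04), or 1.22-fold lower in AHR-KO. The exact permutation test over the arrays gave a two-sided p = 0.00794, the smallest that 5 arrays against 5 allow, and limma an unadjusted p = 0.0273 and an adjusted p = 0.998. Among all genes, 0.334% had all 5 AHR-KO arrays below all 5 WT arrays. The unadjusted limma p was no longer under 0.05 when AHR-KO replicate 2 (0.0647), AHR-KO replicate 5 (0.0657) or WT replicate 1 (0.0586) was left out.

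Dnmt1, the maintenance methyltransferase itself, had log2 values of 9.80, 9.64, 10.13, 9.86 and 10.31 in AHR-KO replicates 1 to 5, against 9.88, 10.00, 9.86, 9.87 and 10.02 in WT replicates 1 to 5. The AHR-KO arrays reached both above and below the WT arrays, 2 above all of them and 2 below. Its log2 fold change was 0.02 (SE 0.14, 95% interval -0.27 to 0.32, adjusted p = 1 from limma). Leaving out AHR-KO replicate 3 gave -0.02 and leaving out replicate 5 gave -0.07. Uhrf1 and Dnmt1, which act together, thus gave differences of -0.28 and 0.02, and the difference between these was not tested.

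To show the sequence around the starts of the genes on which the results turn, windows of 300 bases, 250 before the start site and 50 after it, were taken from RefSeq (GRCm38.p6). All 9 genes were matched, with 15 windows. The windows were searched on both strands for GCGTG, the core of the element bound by AHR with its partner ARNT. It was found in 5 of the 15 windows (33.3%), in Dnmt1, Uhrf1, Idh1 and Idh2, against 32.4% of all 32851 windows. The windows of Uhrf1 and Dnmt1 shown here also hold strings of the E2F type, bound by a factor family known for genes of S phase, with TTTCGCGC once in each and TTTGGCGC once in Dnmt1. TTTCGCGC occurs in 0.323% and TTTGGCGC in 0.514% of all windows. Both strings contain CpG, and the Uhrf1 and Dnmt1 windows shown have 33 CpG sites each, where the median of all windows is 7. The shares among windows as rich in CpG were not counted. A match of letters is not evidence of binding. Capitals mark GCGTG or, where it lies on the other strand, its complement CACGC.
Uhrf1, chr17:56304063-56304362, + strand: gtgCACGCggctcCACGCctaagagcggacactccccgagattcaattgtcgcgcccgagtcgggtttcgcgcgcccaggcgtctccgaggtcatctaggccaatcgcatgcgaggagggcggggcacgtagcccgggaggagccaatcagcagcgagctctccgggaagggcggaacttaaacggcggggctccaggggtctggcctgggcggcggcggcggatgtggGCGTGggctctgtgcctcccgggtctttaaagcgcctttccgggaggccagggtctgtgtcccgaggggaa
Dnmt1, chr9:20952574-20952873, - strand: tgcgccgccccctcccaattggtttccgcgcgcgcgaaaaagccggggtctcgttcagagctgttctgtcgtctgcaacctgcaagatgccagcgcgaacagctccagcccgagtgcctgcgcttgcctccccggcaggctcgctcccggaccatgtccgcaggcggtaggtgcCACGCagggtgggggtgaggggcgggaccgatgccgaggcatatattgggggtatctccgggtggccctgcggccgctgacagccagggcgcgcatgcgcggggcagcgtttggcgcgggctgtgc
Tet2, chr3:133544341-133544640, - strand: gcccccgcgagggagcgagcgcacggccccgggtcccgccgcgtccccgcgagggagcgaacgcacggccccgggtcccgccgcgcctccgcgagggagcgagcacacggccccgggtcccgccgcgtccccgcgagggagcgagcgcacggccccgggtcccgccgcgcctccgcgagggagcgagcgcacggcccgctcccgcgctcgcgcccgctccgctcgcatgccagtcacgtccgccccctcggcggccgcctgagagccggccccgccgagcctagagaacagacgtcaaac
Idh1, chr1:65186430-65186729, - strand: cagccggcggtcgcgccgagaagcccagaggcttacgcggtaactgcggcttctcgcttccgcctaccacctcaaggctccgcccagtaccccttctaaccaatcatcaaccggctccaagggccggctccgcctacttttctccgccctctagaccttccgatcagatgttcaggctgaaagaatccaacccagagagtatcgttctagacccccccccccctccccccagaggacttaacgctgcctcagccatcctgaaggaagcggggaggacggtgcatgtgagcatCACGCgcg
Idh2, chr7:80115301-80115600, - strand: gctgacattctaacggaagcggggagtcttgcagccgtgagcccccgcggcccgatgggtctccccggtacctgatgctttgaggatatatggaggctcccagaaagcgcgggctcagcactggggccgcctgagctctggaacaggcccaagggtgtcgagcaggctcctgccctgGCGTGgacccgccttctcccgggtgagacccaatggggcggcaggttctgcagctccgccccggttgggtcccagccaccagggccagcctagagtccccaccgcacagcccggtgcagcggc
Of the windows shown, that of Uhrf1 held 3 copies of GCGTG, those of Dnmt1, Idh1 and Idh2 held 1 each, and that of Tet2 held 0. The highest number in any of all windows was 15. Uhrf1 had 2 windows and Dnmt1 had 3, and only the window shown of each held GCGTG or the E2F strings. Idh1 had 2 windows, both with GCGTG. The Tet2 window had 57 CpG sites, more than or as many as in 99.9% of all windows, where the median was 7. Among the 15 windows the median was 23.

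The de novo methyltransferase genes overlapped between the groups. Dnmt3a, which in mice is needed for HSCs to differentiate after transplantation, had log2 values of 7.05, 7.16, 7.28, 7.63 and 7.09 in AHR-KO replicates 1 to 5, against 7.22, 7.17, 7.28, 7.31 and 6.90 in WT replicates 1 to 5. Only AHR-KO replicate 4 lay above the WT arrays and only WT replicate 5 lay below the AHR-KO arrays. Its log2 fold change was 0.07 (SE 0.14, 95% interval -0.23 to 0.37, adjusted p = 0.998 from limma), and it was -0.03 without AHR-KO replicate 4. Dnmt3b had values of 7.16, 7.52, 7.49, 6.96 and 7.21 in AHR-KO replicates 1 to 5, against 7.0, 7.32, 7.30, 7.85 and 7.46 in WT replicates 1 to 5. WT replicate 4 was the highest of the 10 arrays and AHR-KO replicate 4 the lowest. The log2 fold change of Dnmt3b was -0.11 (SE 0.17, 95% interval -0.48 to 0.25, adjusted p = 0.998 from limma), and it was 0.002 without WT replicate 4.

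All 3 TET genes had positive log2 fold changes, none past a threshold. Tet2, whose loss in mice expands HSCs and myeloid cells, had the largest difference of the 9 genes. Its log2 values were 6.74, 6.48, 7.25, 7.07 and 7.66 in AHR-KO replicates 1 to 5, against 6.34, 7.31, 6.72, 6.99 and 5.77 in WT replicates 1 to 5. AHR-KO replicate 5 was the highest array, and WT replicates 1 and 5 lay below all AHR-KO arrays. The mean was 7.04 ± 0.46 in AHR-KO and 6.62 ± 0.60 in WT (SD, n = 5 each), a log2 fold change of 0.42 (SE 0.29, 95% interval -0.22 to 1.05), or 1.33-fold higher in AHR-KO. This difference was smaller than the SD of either group (exact permutation test, two-sided p = 0.246, and adjusted p = 0.998 from limma). It was 0.20 without WT replicate 5 and 0.59 without WT replicate 2.

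Tet3 had log2 values of 5.77, 6.51, 6.49, 6.55 and 6.44 in AHR-KO replicates 1 to 5, against 6.09, 6.45, 6.27, 6.06 and 5.49 in WT replicates 1 to 5. AHR-KO replicates 2, 3 and 4 lay above all WT arrays, AHR-KO replicate 1 lay far below its group, and WT replicate 5 was the lowest of all. The log2 fold change was 0.28 (SE 0.20, 95% interval -0.15 to 0.72, adjusted p = 0.998 from limma). It was 0.43 (unadjusted p = 0.0338 from limma) without AHR-KO replicate 1, while leaving out WT replicate 5 gave 0.13. Tet1, which acts mainly in embryonic and germ cells, ranged from 5.84 to 6.32 in AHR-KO and from 5.86 to 6.18 in WT. Its log2 fold change was 0.02 (SE 0.12, 95% interval -0.25 to 0.29, adjusted p = 1 from limma).

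**Figure D2:**
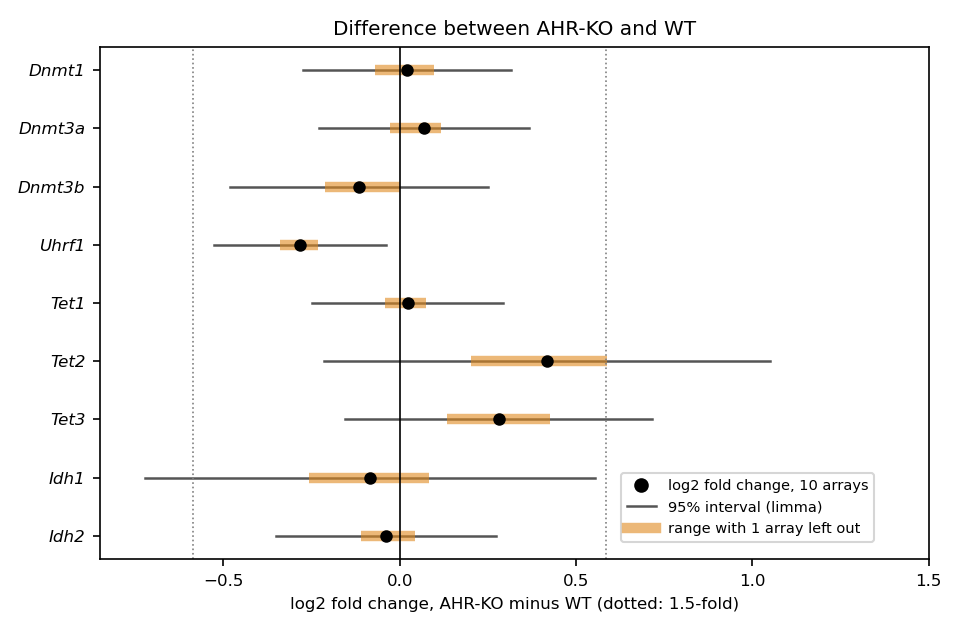
Log2 fold change of each gene, AHR-KO minus WT (points), with the 95% interval of limma (thin lines) and the range of values when 1 array is left out (bars); dotted lines mark 1.5-fold. Only the interval of Uhrf1, from -0.53 to -0.04, lies wholly on 1 side of 0, and those of Tet2, Tet3 and Idh1 reach past 1.5-fold.

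Idh1 and Idh2 differed more among the arrays of a group than between the groups, as did the others of the 9 except Uhrf1. Idh1 had log2 values of 8.36, 8.34, 9.29, 9.38 and 9.66 in AHR-KO replicates 1 to 5, against 8.40, 9.35, 9.48, 9.31 and 8.91 in WT replicates 1 to 5. Low values came from the first and second AHR-KO arrays and from WT replicates 1 and 5, and the other 6 arrays lay close together above them. The log2 fold change of Idh1 was -0.08 (SE 0.29, 95% interval -0.72 to 0.55, adjusted p = 0.999 from limma). Idh2 had 8.86, 8.99, 9.33, 9.36 and 9.43 in AHR-KO replicates 1 to 5, against 9.18, 9.40, 9.35, 9.29 and 8.95 in WT replicates 1 to 5, with the same 4 arrays lowest. Its log2 fold change was -0.04 (SE 0.14, 95% interval -0.35 to 0.27, adjusted p = 0.999 from limma).

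The 4 low arrays were the same that a principal component analysis over the 22180 genes put on 1 side of 0 along its leading axis (30.6% of variance), away from the remaining 6. These sets come from the data and are not groups of the study, so values are described here without a test. In the 4 arrays Idh1 lay between 8.34 and 8.91, and in the 6 between 9.29 and 9.66. Idh2 lay between 8.86 and 9.18 in the 4, and between 9.29 and 9.43 in the 6. Neither gene overlapped between the sets, while Tet2, between 5.77 and 6.74 in the 4 and between 6.72 and 7.66 in the 6, overlapped slightly. Dnmt1, Dnmt3a, Dnmt3b, Uhrf1, Tet1 and Tet3 overlapped as well. The leading axis was computed from all genes, these 9 among them. How many of all genes separate the sets was not counted, so the separation cannot be called particular to Idh1 and Idh2.

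Markers of cell state moved with the same sets. The score of the HSC markers, the mean log2 deviation of the 16 measured of 18 listed from their means over the 10 arrays, lay between 0.18 and 0.57 in the 4 arrays, against -0.73 to -0.02 in the 6. The score of 14 of 14 monocyte, macrophage and dendritic cell markers lay between -1.25 and -0.13 in the 4, against 0.11 to 0.72 in the 6. That of the progenitor markers Cd34, Flt3 and Cd48 lay between -0.70 and -0.35 in the 4, against 0.02 to 0.54 in the 6. The neutrophil score (14 of 14 markers) lay between -1.57 and -0.26 in the 4, against -0.07 to 1.91 in the 6, and the stromal and endothelial score (9 of 9 markers) between -0.87 and -0.11 in the 4, against 0.02 to 0.76 in the 6. The scores of erythroid, megakaryocyte and platelet, B cell, T and NK cell, and mast cell and basophil markers overlapped between the sets. Both groups reached into both sets, the HSC score running from -0.73 to 0.55 in AHR-KO and from -0.23 to 0.57 in WT. The monocyte, macrophage and dendritic cell score ran from -1.25 to 0.72 in AHR-KO and from -0.76 to 0.37 in WT. The part of these cells in the levels of Idh1, Idh2 and Tet2 was not tested. Between the genotypes, 3 of 9 mast cell and basophil markers were lower past the study threshold (Mcpt8 at -1.07, Cpa3 at -0.87 and Prss34 at -0.75), as was the collagen gene Col1a2 (-0.84) among 9 stromal and endothelial markers, where the endothelial receptor gene Kdr was higher (0.70). Over all genes 0.523% were past this threshold in either direction. Of the 16 measured HSC markers 14 had negative differences and 2 positive ones, with a median log2 fold change of -0.24, and 0 were past an unadjusted p of 0.05. Over all genes 51.1% of the differences were positive. Procr, which encodes the endothelial protein C receptor of HSCs, had -0.69 (SE 0.33), Myct1 had -0.66 (SE 0.31) and Mecom, a transcription factor gene needed by HSCs, had -0.56 (SE 0.31). Of 9 measured erythroid markers 8 had positive values, with a median of 0.49 and 0 past the threshold. The erythroid score overlapped between the groups, from -0.356 to 1.135 in AHR-KO and from -0.94 to 1.02 in WT. The part of these cells in the Uhrf1 and Tet2 differences was not tested either.

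A fit with the array set as a block was chosen after seeing the data. In it the log2 fold change of Tet2 stayed at 0.42, with SE 0.17 (unadjusted p = 0.0304 and adjusted p = 0.849 from limma). Each set held as many AHR-KO as WT arrays, so the block could not change the estimate. The sets were drawn from these same values, so the lower SE and p are not a separate test. Within the 6 arrays the Tet2 value was 0.32 and within the 4 arrays 0.56. Uhrf1 had -0.28 with the block (unadjusted p = 0.0290 from limma), -0.18 within the 6 arrays and -0.44 within the 4. Idh1 had 0.06 within the 6 arrays and -0.31 within the 4, so that its sign differed between the sets, and Idh2 had 0.03 and -0.14.

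**Figure D3:**
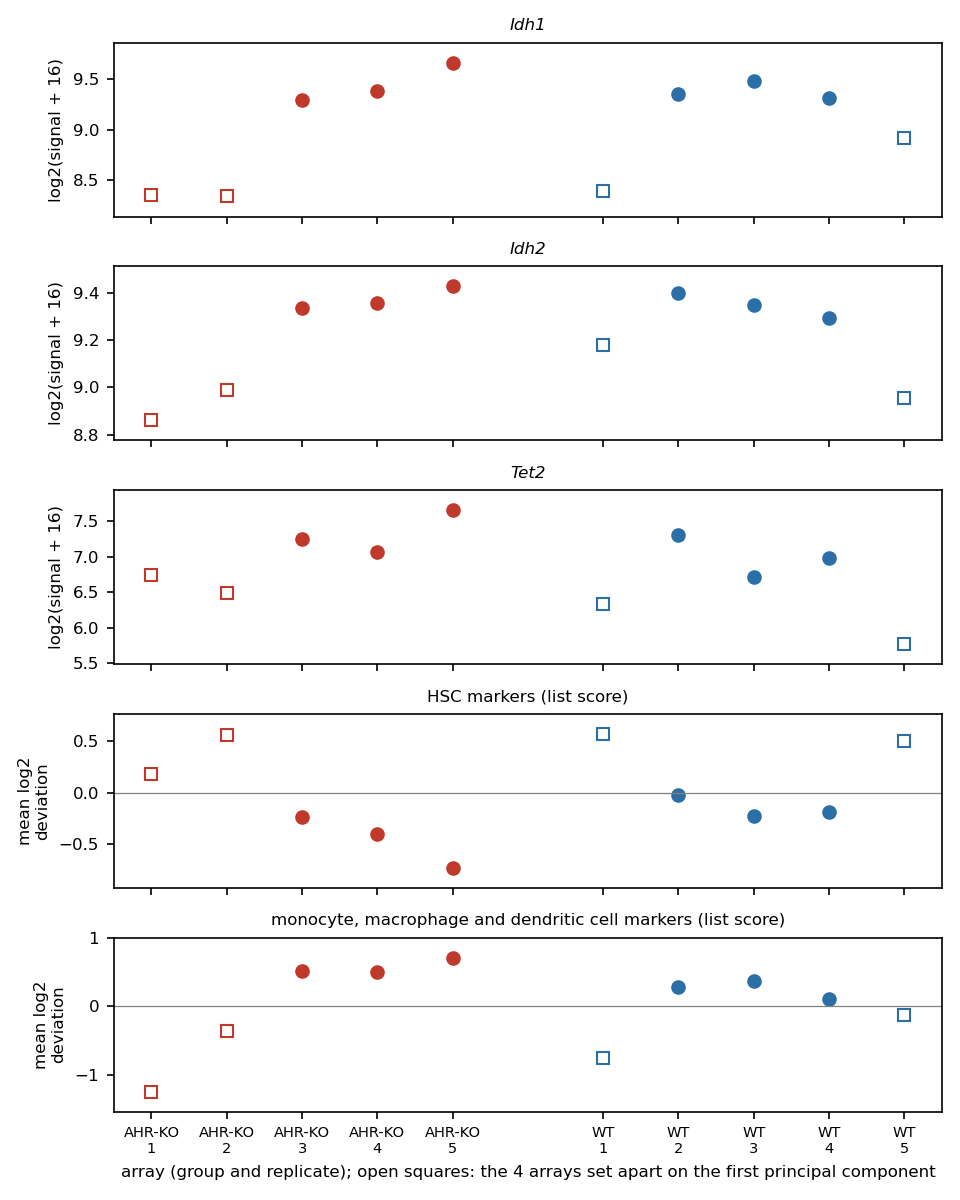
Log2(signal + 16) of Idh1, Idh2 and Tet2 and the scores of the HSC markers and of the monocyte, macrophage and dendritic cell markers in each AHR-KO array (red, left) and WT array (blue, right); open squares are the 4 arrays set apart on the first principal component. The open squares lie at 8.34 to 8.91 for Idh1, below every filled circle, and at 0.18 to 0.57 for the HSC score, above every filled circle.

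Because Dnmt1 and Uhrf1 are known to be transcribed with the genes of DNA replication in dividing cells, each of the 9 genes was set against a score of S-phase genes (23 of 25 measured) and a score of mitosis genes (15 of 16 measured), which makes 18 relations over 10 arrays. Dnmt1 had the closest relation with the mitosis score, at r = 0.84 (permutation p = 0.00257, adjusted p = 0.0463) and Spearman's rho = 0.59 (permutation p = 0.0809, adjusted p = 0.543). Without AHR-KO replicates 3 and 5, the arrays farthest from the median score, r was 0.36, so the relation rests on these 2 arrays. Within the 6 arrays, which hold both, r was 0.98 (exact permutation p = 0.00694, n = 6). These 6 were set apart by the same data. The p-values within them are unadjusted, stand outside the 18 relations and serve as description only. Tet2 had r = 0.76 with the mitosis score (permutation p = 0.00956, adjusted p = 0.0860), with rho = 0.77 (permutation p = 0.0126, adjusted p = 0.227), an r of 0.63 without the 2 arrays and of 0.86 within the 6 (exact permutation p = 0.0208, n = 6). Uhrf1 had r = -0.31 with the mitosis score (permutation p = 0.395, adjusted p = 0.711) and rho = -0.18 (permutation p = 0.634, adjusted p = 0.714), with an r of 0.03 without the 2 arrays and of -0.69 within the 6 (exact permutation p = 0.0903, n = 6). With the S-phase score, Dnmt1 had r = 0.31 (permutation p = 0.386, adjusted p = 0.711) and rho = 0.38 (permutation p = 0.284, adjusted p = 0.714). Without the 2 arrays farthest from the median of that score its r was 0.51, and within the 6 arrays it was 0.84 (exact permutation p = 0.0361, n = 6). By the size of Pearson's r over the 10 arrays, though not by rho or within the 6 arrays, Dnmt3b stood first against the S-phase score, at r = -0.41 (permutation p = 0.235, adjusted p = 0.711) and rho = -0.26 (permutation p = 0.471, adjusted p = 0.714). This r was -0.25 within the 6 arrays, -0.04 without WT replicate 4 and -0.70 without AHR-KO replicate 4, and its sign turned without the 2 arrays farthest from the median (0.24), so it rests on single arrays. Of the 18 relations, 1 passed an adjusted p under 0.05 by Pearson's r and 0 by Spearman's rho.

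**Figure D4:**
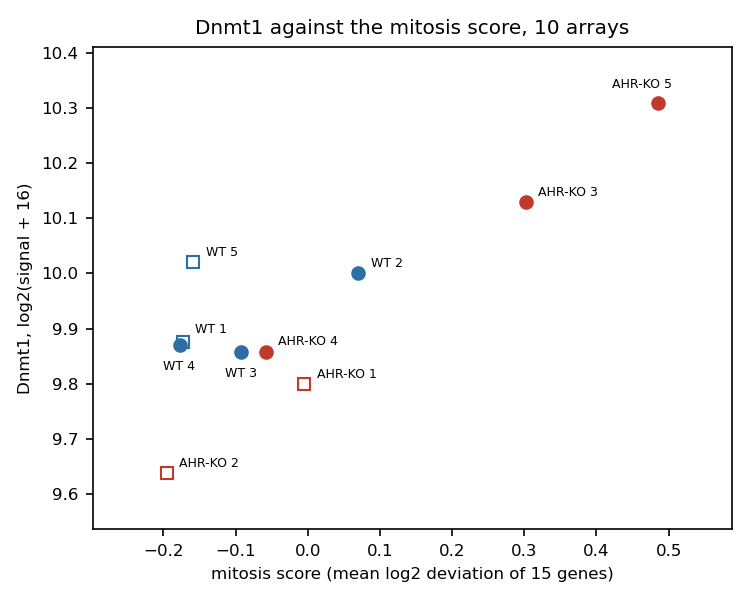
Dnmt1, as log2(signal + 16), against the mitosis score, the mean log2 deviation of 15 genes, in 5 AHR-KO arrays (red) and 5 WT arrays (blue); open squares are the 4 arrays set apart on the first principal component. AHR-KO replicates 3 and 5, at 10.13 and 10.31, lie apart at the upper right, and without them r is 0.36.

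For each gene, the gene whose values followed it most closely over the 10 arrays was found by Pearson's r after removing the group means, among 11089 genes above the median level. The best of so many genes is high by choice, so r is only a description. It was Haus1 for Dnmt1 (r = 0.95), Ptpn22 for Dnmt3a (0.91), Cdc37l1 for Dnmt3b (0.86) and Lrrc3c for Uhrf1 (0.87). For the TET genes it was Mvb12b for Tet1 (0.90), Map4 for Tet2 (0.98) and Kdelr1 for Tet3 (0.97). Idh1 was followed by Nrp1 (0.99) and Idh2 by Cdkn2c (0.99). Idh1 and Tet2 also had high within-group SDs, at 0.54 and 0.53, at or above those of 92.8% and 92.7% of all genes. The within-group SD of Uhrf1, at 0.14, was at or above that of 7.3%, beside a median of 0.26 over all genes.

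The genes that work with the 9 were described by list, and no gene of these lists passed an adjusted p under 0.05 or the study threshold. In these counts higher and lower give the sign of the difference alone, which was positive for 51.1% of all genes. Of 14 partners of maintenance methylation, 11 were higher in AHR-KO and 3 lower, with a median log2 fold change of 0.06. Hells, a chromatin remodeler needed for DNA methylation, was the 1 partner at an unadjusted p under 0.05, with 8.68 ± 0.21 in AHR-KO and 8.36 ± 0.20 in WT (SD, n = 5 each), a log2 fold change of 0.32 (unadjusted p = 0.0394 from limma). The histone deacetylase gene Hdac2 had 0.23 (SE 0.11). Hells and Uhrf1, both needed for maintenance methylation, thus had differences of opposite sign.

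Of 8 measured methyl-CpG readers, 3 were higher and 5 lower, with a median of -0.07. The base excision glycosylase gene Mbd4, which removes thymine from mismatches at CpG sites, had a log2 fold change of -0.58 (SE 0.31), and Mbd3, a subunit of the NuRD complex, had -0.41 (SE 0.21). Of 12 measured genes of base excision and deamination, 5 were higher and 7 lower, with a median of -0.02. The glycosylase genes Neil2 and Neil3 had -0.39 (SE 0.19) and 0.29 (SE 0.24). Of 8 measured TET partners, 3 were higher and 5 lower, with a median of -0.05. Cxxc5, whose protein binds unmethylated CpG sites and regulates TET2, had -0.37 (SE 0.19), and Nanog, at 4.99 in AHR-KO and 5.15 in WT, was below the background limit. None of the genes in these 3 lists had an unadjusted p under 0.05.

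The supply of methyl groups and of 2-oxoglutarate gave small differences too. Of 19 measured genes of the S-adenosylmethionine and one-carbon cycle, 12 were higher and 7 lower, with a median of 0.05 and 0 at an unadjusted p under 0.05. The mitochondrial folate enzyme gene Mthfd2 had 0.51 (SE 0.28), and Shmt1, the cytosolic serine hydroxymethyltransferase, had 0.32 (SE 0.19). Of 20 measured genes of 2-oxoglutarate and 2-hydroxyglutarate metabolism, 7 were higher and 13 lower, with a median of -0.03. Dld, the dihydrolipoamide dehydrogenase subunit of the 2-oxoglutarate dehydrogenase complex, had 9.37 ± 0.29 in AHR-KO and 8.96 ± 0.20 in WT (SD, n = 5 each), a log2 fold change of 0.41 (unadjusted p = 0.0217 from limma). Aco1, the cytosolic aconitase, had -0.29 (SE 0.18).

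Among genes of proliferation, 17 of 23 measured S-phase genes were higher and 6 lower, with a median of 0.09. Of 15 measured mitosis genes 13 were higher and 2 lower, with a median of 0.20. The mitosis score was 0.30 and 0.49 in AHR-KO replicates 3 and 5. In AHR-KO replicates 1, 2 and 4 it was -0.004, -0.195 and -0.06, against -0.18 to 0.07 in WT. The S-phase score ran from -0.12 to 0.14 in AHR-KO and from -0.20 to 0.11 in WT. Genes of a list share the same arrays, so these counts are not of separate observations. Of the S-phase genes only Gins1, a subunit of the replicative helicase, had an unadjusted p under 0.05, with a log2 fold change of 0.45 (SE 0.13), and the histone chaperone gene Chaf1b had 0.29 (SE 0.16). The kinetochore genes Cenpf and Cenpe had 0.48 (SE 0.22) and 0.41 (SE 0.19). Uhrf1, at -0.28, lay below the lowest value of either list, which was -0.15 among S-phase genes and -0.06 among mitosis genes.

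**Figure D5:**
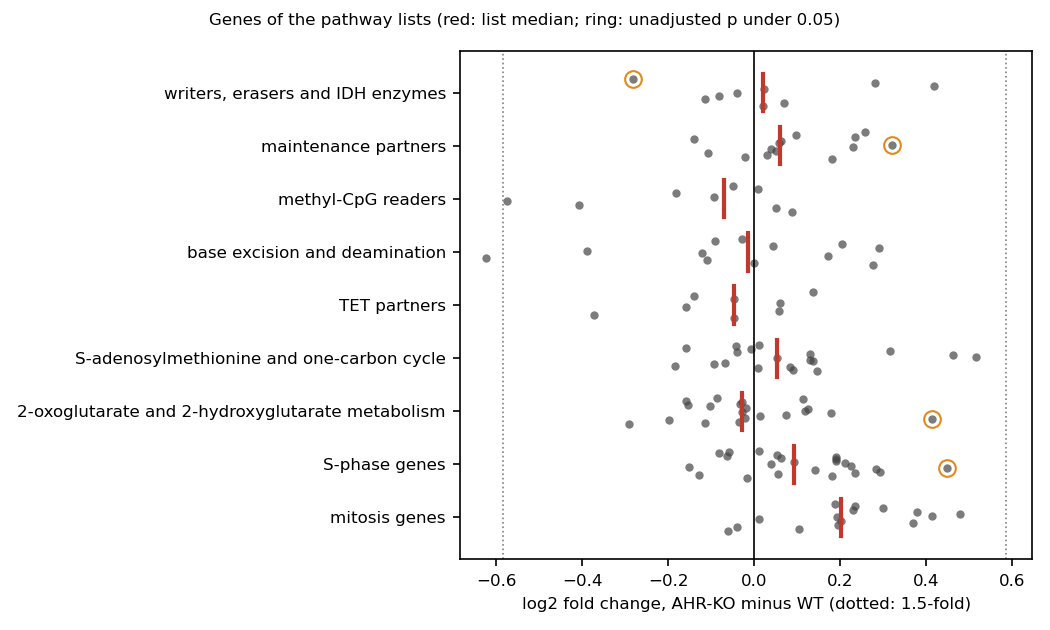
Log2 fold change, AHR-KO minus WT, of each measured gene (points) of the 9 writers, erasers and IDH genes and of 8 lists of genes that work with them or mark S phase and mitosis, with the list median (red line); rings mark an unadjusted p under 0.05 and dotted lines 1.5-fold. The medians lie between -0.07 for the methyl-CpG readers and 0.20 for the mitosis genes, and Uhrf1 is the only ringed gene with a negative value.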

How the data were processed

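RNA of SLAM+ HSCs was measured on 10 arrays, for which the deposited values are intensities on a linear scale, 1 for each probe set. Affymetrix Expression Console is named in the submitters' processing notes. IterPLIER with quantile normalization is described for arrays of another AHR line, and whether IterPLIER was used here is not stated. The version is not given in the sources used here. All arrays share a median of 24.65 and a maximum of 38560, so a change that affects most genes would be hidden. Quantile normalization of these values again left the count of genes past the study threshold at 116, so the arrays already shared 1 distribution.

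Of 41345 probe sets, 23521 had 1 gene symbol, 1820 several and 16004 none in the platform annotation used here. A gene with several probe sets was represented by its brightest on average, which left 22180 genes, and log2(signal + 16) was computed. Groups were taken from the sample titles and compared with limma 3.58.1 (lmFit, eBayes; R 4.3.3). P-values were adjusted over all genes by the method of Benjamini and Hochberg, with no filter on level. The study threshold, 1.5-fold with an unadjusted p under 0.05, takes its 2 limits from the paper's methods. The paper does not say whether that p was unadjusted, and its statistics section mentions an adjustment for multiple comparisons. Here the limits were applied to unadjusted limma p-values, so the counts are not those of the paper's own rule. Single genes were compared by exact two-sided permutation, and correlations were tested with 100000 permutations. Named genes are the 9 genes, up to 4 genes per list past the study threshold or else the 2 with the smallest p, and the closest gene to each of the 9. The HSC, mast cell, stromal and endothelial markers given with differences were named after their values were seen. So were Cd34, Hlf, Mpo and Lyz2, given with levels. Genes and lists were chosen with earlier results of these data known. The fit was tested on simulated data. Promoter windows are from RefSeq, GRCm38.p6, read in Python 3.11.15. No coordinates are given for probe sets. Alternatives were other pseudocounts (1 and 64), normalization, filter on level, probe set choice, replicate block, the methods' t-test, spread model, array weights, linear means and each array left out.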

Additional observations from a re-analysis of the deposited data

Results flagged for a closer look

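In 1 of the 18 sets of 5 arrays (9 genes in each group), an array lay far from the others. Tet3 in AHR-KO replicate 1 had a log2 value of 5.77, and the next lowest AHR-KO array had 6.44. The gap was 0.860 of the range of the group, above Dixon's critical value, which chance passes in about 1 of 20 groups.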

How the results depend on the processing

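None of the 9 genes passed the study threshold, and no gene an adjusted p under 0.05, under any of the 24 alternatives run. At an unadjusted p under 0.05 in limma, 428 genes were lower and 402 higher. The count of all genes past the study threshold, 116, became 574 at a pseudocount of 1, 16 at 64, 71 among genes above the median level, 75 with the methods' t-test, 429 with the fold from linear means, and 99 to 230 with 1 array left out, over 1.5 times the count when the array left out was AHR-KO 1 (175), AHR-KO 2 (230), WT 2 (195) or WT 3 (194). In fits chosen after seeing the data it was 331 within the 6 arrays and 845 within the other 4. The count of the 9 genes at an unadjusted p under 0.05, 1, was 0 at a pseudocount of 1, with a replicate block and with array weights. With the array sets, drawn from these same values, it was 0 within the 6, 0 within the 4 and 2 as a block. With 1 array left out it was 0 to 2, being 0 when AHR-KO 2, AHR-KO 5 or WT 1 was left out and 2 when AHR-KO 1 was. Uhrf1 was lower in AHR-KO under all 24 alternatives, at -0.44 to -0.18, with an unadjusted p of 0.00695 to 0.237, under 0.05 in 16. As its groups did not overlap, other pseudocounts, array weights or fewer arrays could not turn this sign. Tet2 (0.20 to 0.59) and Tet3 (0.13 to 0.43) were higher under all 24. With 1 array left out, the sign turned within the range of Dnmt1 (-0.0694 to 0.0983), Dnmt3a (-0.0271 to 0.116), Dnmt3b (-0.212 to 0.00217), Tet1 (-0.0428 to 0.0755), Idh1 (-0.257 to 0.0822) and Idh2 (-0.110 to 0.0434). Within the 4 arrays it turned for Dnmt1 (-0.230) and Dnmt3b (0.111), and within the 6 for Tet1 (-0.0398), Idh1 (0.0643) and Idh2 (0.0269). The cause was not tested. With the replicate block Uhrf1 had an unadjusted p of 0.0565. The same-numbered arrays correlated at 0.35, -0.20, 0.15, 0.21 and -0.12 in their deviations. The WT array closest to an AHR-KO array carried the same number for replicate 1 and for none of the others. These values cannot decide whether the numbers pair the arrays.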
